A study of Mus musculus with 18 samples.

Results

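The cytosolic ribosomal protein (RP) genes comprised 83 of the 16248 genes in the expression table, chosen by name only: symbols of the form Rpl or Rps followed by a number, with or without a letter, together with Rpsa, Rplp0, Rplp1 and Rplp2. Names that end in -ps and the Rps6k kinases were left out, so that 83 of 131 symbols starting with Rpl or Rps were taken. By annotation, 80 members were protein coding and 3 were pseudogenes (Rps3a2, Rps3a3 and Rps4l). Another 3 coding members (Rps27l, Rpl22l1 and Rpl7l1) are paralogs of a classical RP gene. The remaining 77 members are called core members below, 43 of the large subunit, 3 of the P stalk of the large subunit and 31 of the small subunit.

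Each ribosome is built from a large and a small subunit, in which RNA made in the nucleolus is combined with 1 copy of nearly every RP. The small subunit reads the messenger RNA (mRNA), the large subunit joins amino acids, and the P stalk (Rplp0, Rplp1 and Rplp2) recruits the elongation factors. RP mRNAs are among the most abundant of any cell and start with a run of pyrimidines, the terminal oligopyrimidine (TOP) motif, through which the mTOR pathway and the RNA-binding protein Larp1 set their translation and stability. Much of their control thus acts on translation, apart from the amount of mRNA measured here.

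Expression was measured by bulk RNA sequencing of ECs (endothelial cells, the lining of blood vessels) in 6 groups of 3 libraries each, 18 in all. ECs were sorted as live CD45-negative, CD31-positive cells from female FVB mice, 3 h after injection of PBS or of cGAMP, a second messenger that binds and activates STING, part of the cell's response to DNA in the cytosol. The normal PBS and normal cGAMP groups were wild-type ECs from the mammary fat pad. The MMTV-PyMT PBS and MMTV-PyMT cGAMP groups were ECs of spontaneous breast tumours, in mice whose MMTV promoter drives the PyMT oncogene in the mammary epithelium, so that the ECs themselves are not the transformed cells. The implanted PBS and implanted cGAMP groups were ECs of tumours grown from cultured MMTV-PyMT tumour cells in the fat pad of wild-type FVB hosts. The 6 normal columns of the table carry a treatment and a number but no tissue name, and were taken as normal because all tumour libraries were named by other columns. Per the study, each group held separate mice from independent experiments. Neither the labels nor the columns tie a library to a mouse or an experiment, so that experiment could not be a term in the fit, and p-values measure the spread between these libraries.

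Values are FPKM, fragments per kilobase of gene length on a common library scale. Whole reads were recovered from the FPKM steps for all 83 members, and the libraries held 9179771 to 12189431 reads, a 1.33-fold range. The sorted cells carried endothelial transcripts, with 13 of 13 markers listed and a summed marker level of 1476 to 1679 FPKM in normal PBS, 989 to 1212 in MMTV-PyMT PBS and 1563 to 1978 in implanted PBS libraries, and up to 2566 over all groups. Transcripts of other cells were present too: the sum over 7 of 7 epithelial markers was 439 to 565 FPKM in normal PBS, 893 to 966 in MMTV-PyMT PBS and 393 to 566 in implanted PBS libraries. Of the 12 leukocyte markers, 10 were listed, with a sum of 20.2 to 120.1 FPKM in 4 groups and in the implanted groups of 33.4 to 308.6, the highest being implanted cGAMP replicate 2. The gene that encodes CD45, Ptprc, had means of 4.07 FPKM in normal PBS, 0.29 in MMTV-PyMT PBS and 0.81 in implanted PBS. Under cGAMP its means were 3.87, 0.24 and 4.24 FPKM in the same order. Of 5 adipocyte markers only Plin4 was listed, with means of 4.84 FPKM in normal PBS, 0.35 in MMTV-PyMT PBS and 0.43 in implanted PBS. The table holds no value at 0, so that the unlisted markers cannot be taken as absent from every group.

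All 83 members were expressed at 1 FPKM or more in at least 3 libraries. Mean FPKM over the 18 libraries of the core members ran from 11.4 (Rpl35a) to 693 (Rplp1), with a median of 114, and the 3 highest were Rplp1, Rplp0 (557) and Rps4x (504). The 3 pseudogenes were the lowest of all, at 1.0 (Rps3a3), 1.6 (Rps3a2) and 6.9 FPKM (Rps4l). This order partly follows the gene models, because FPKM divide by the summed length of all exons. For Rpl35a that length was 3526 bases against 519 for its longest coding transcript. Members lay on 19 chromosomes, 14 of them on chromosome 7. The lowest number of reads of any core member in any library was 151, and counting error was not separated from the spread between libraries.

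RP genes share sequence with processed pseudogenes, which limits how surely reads can be assigned. A median of 29.6% of the 75-base windows of a member occurred in another annotated gene, from 0% (Rps3) to 84.6% for Rpl36a, and 78 members had at least 1 such partner. The 36 genes with a -ps name in the table had a median mean level of 1.87 FPKM and a sum of 1.66% of that of the members. This sum leaves out copies with other names, such as Gm10288 (shared with Rpl11) and Gm10275 (shared with Rpl12), which were also in the table. For 13 members under 10% of windows were shared, among them Rpl22, Rpl34, Rpl39, Rpl4, Rpl7l1, Rpl8, Rps15a, Rps20, Rps21, Rps27l, Rps3 and Rps9, and counts for those alone are given beside the main ones.

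Promoter sequences were at hand for 60 of the 83 members, in 71 windows of 250 bases before to 50 bases after a start site (RefSeq, GRCm38.p6). On either strand, CCGGAAG, the core letters bound by ETS-family factors such as GABP, occurred for 25 of 60 members (41.7%; 36.6% of their windows), against 8.86% of 32851 windows of all genes. AAGATGGC, the letters bound by YY1, occurred for 6 members (10%, against 2.75% of all windows), CACGTG, the E-box bound by MYC, for 6 (10% against 7.15%) and TATAAA for 7 (11.7% against 13.6%). A C at the start base followed by 4 pyrimidines, the beginning of a TOP motif, was found for 13 members (21.7%, against 2.51% of all windows). A match is a description of letters and not evidence of binding.

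The start regions of 6 members whose levels are described below are printed here from 60 bases before to 15 bases after the annotated start, to show which of them carry these letters. Capitals mark the ETS letters, the TATA letters on either strand, or the pyrimidine run that begins at the start base. The RefSeq windows lie at chr9:66946026-66946100 (plus strand) for Rps27l, chr3:90213634-90213708 (minus strand) for Rps27, chr10:128549154-128549228 (minus strand) for Rpl41, chr11:114668520-114668594 (plus strand) for Rpl38, chr2:180257319-180257393 (plus strand) for Rps21 and chr3:28805448-28805522 (plus strand) for Rpl22l1.
Rps27l: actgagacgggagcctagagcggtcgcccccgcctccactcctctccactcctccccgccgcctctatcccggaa
Rps27: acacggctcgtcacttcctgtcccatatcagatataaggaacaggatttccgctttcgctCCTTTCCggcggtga
Rpl41: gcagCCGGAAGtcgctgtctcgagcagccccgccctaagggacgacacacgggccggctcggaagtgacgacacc
Rpl38: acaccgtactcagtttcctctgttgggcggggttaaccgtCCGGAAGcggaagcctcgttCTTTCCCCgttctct
Rps21: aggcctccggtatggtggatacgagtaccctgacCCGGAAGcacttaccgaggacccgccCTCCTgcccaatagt
Rpl22l1: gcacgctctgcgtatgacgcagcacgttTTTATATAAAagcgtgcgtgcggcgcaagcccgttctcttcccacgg
Rps27, Rpl38 and Rps21 began with a pyrimidine run, whereas the annotated starts of the core member Rpl41 and of the paralogs Rps27l and Rpl22l1 did not. Rpl22l1 was the one of the 6 with TATAAA.

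As a group, RP transcripts took the largest share of reads in MMTV-PyMT PBS ECs. They took 2.01% ± 0.03 (SD, n = 3) of the recovered reads in normal PBS, 2.60% ± 0.14 in MMTV-PyMT PBS and 1.77% ± 0.05 in implanted PBS libraries. The 3 libraries were at 2.02, 1.99 and 2.04% in normal PBS, at 2.43, 2.7 and 2.65% in MMTV-PyMT PBS and at 1.82, 1.77 and 1.72% in implanted PBS, with no overlap between the 3 groups. Under cGAMP the shares were 1.98% ± 0.20 (2.14, 2.04 and 1.76%), 2.16% ± 0.18 (2.32, 1.98 and 2.19%) and 1.46% ± 0.19 (1.28, 1.66 and 1.44%). The normal cGAMP libraries lay on both sides of their PBS libraries, whereas all cGAMP libraries of both tumours were below all PBS libraries of the same tumour. In a bulk sample, fewer cells of a type and less RNA per cell cannot be told apart.

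FPKM gave a different view of the cGAMP libraries, because the common scale of the table matches median genes and not read totals. The summed FPKM of the members were 10701 ± 499 in normal PBS, 14069 ± 807 in MMTV-PyMT PBS and 10873 ± 453 in implanted PBS libraries (SD, n = 3). Under cGAMP they were 10506 ± 1254, 12813 ± 870 and 11045 ± 1097, so that the implanted cGAMP libraries overlapped implanted PBS on this scale. The 10 genes that gained most read share in implanted cGAMP libraries (Rnf213, Rsad2, Ifit2, mt-Rnr2, Cmpk2, Cxcl9, Gbp2, Cxcl10, Parp14 and Clic4, chosen after their values were seen) went from 2.80 to 6.32% of reads.

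**Figure D1:**
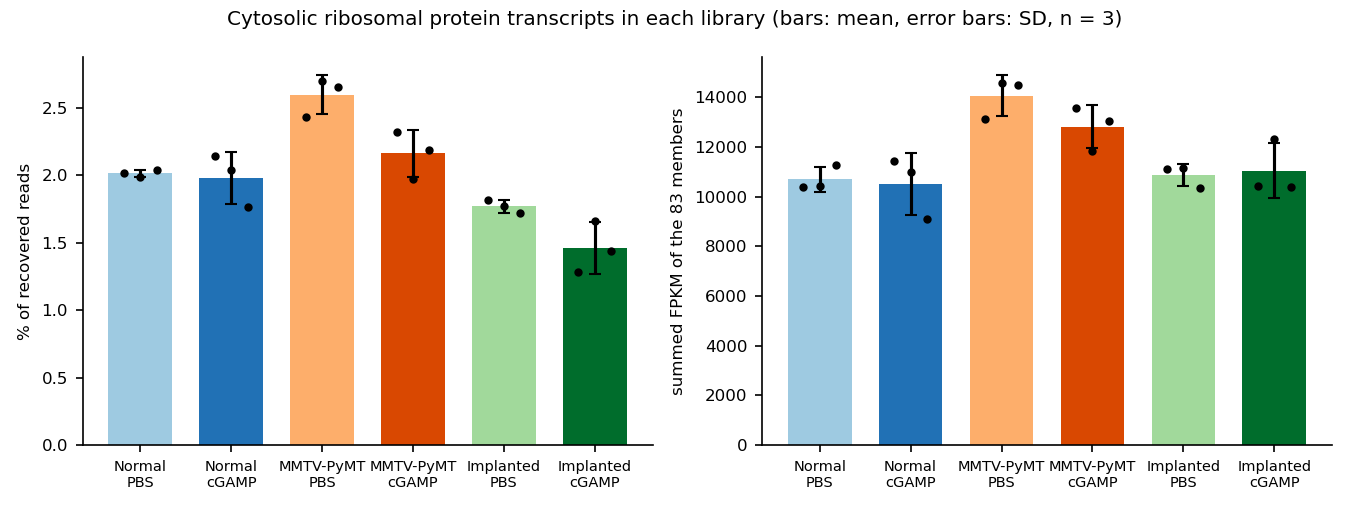
Share of recovered reads (percent, left) and summed FPKM (right) of the 83 RP genes in the 6 groups, with 1 point per library, bars for the mean and error bars for the SD of 3 libraries. MMTV-PyMT PBS libraries sit at 2.43 to 2.7% of reads, above all normal and implanted PBS libraries, and implanted cGAMP lies below implanted PBS in the share of reads but not in summed FPKM.

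ECs of MMTV-PyMT tumours were compared with normal ECs under PBS, which asks how RP genes differ between the vessels of a spontaneous tumour and those of healthy tissue. Of the 83 members, 59 (71.1%) were higher and 1 (1.20%) was lower in MMTV-PyMT, by limma with Benjamini-Hochberg adjustment over 13983 genes. Among all genes tested, 29.8% were higher and 26.6% lower. The median difference of the members was 0.35 on the log2(FPKM + 1) scale, against 0.02 for all genes. Both subunits were involved, with 36 of 46 large subunit core members higher (median 0.38) and 21 of 31 small subunit members higher (median 0.34), and no core member lower. Of the 13 members that share little sequence, 9 were higher and 0 were lower, with a median of 0.35.

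In 64 members all 3 MMTV-PyMT PBS libraries lay above all 3 normal PBS libraries, which is 77.1% of members against 35.4% of all genes tested. The mean of 75 of 77 core members was higher in MMTV-PyMT PBS, and the median core mean was 137 FPKM against 109. Scaling by total reads, quantile normalisation and upper-quartile scaling called 58, 52 and 50 members higher. Few of the differences were large, and 2 members exceeded a 2-fold change.

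Rps27l, a p53-inducible paralog of Rps27 (ENSMUSG00000036781.13, chromosome 9, 66946086 to 66949516, mm10), differed most. It was at 31.3, 31.8 and 34.6 FPKM in normal PBS, at 84.8, 109 and 110 in MMTV-PyMT PBS and at 55.0, 50.1 and 52.7 in implanted PBS libraries. The 3 groups did not overlap, with implanted ECs between the others. The difference from normal was 1.60 ± 0.15 (log2, SE; adjusted p = 2.54e-07) for MMTV-PyMT, and implanted ECs were 0.67 ± 0.15 above normal (adjusted p = 0.00114; limma).

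Rps21, a small subunit protein (ENSMUSG00000039001.12, chromosome 2, 180257377 to 180258445), was higher in MMTV-PyMT than in both other tissues. Its levels were 77.0, 71.9 and 88.9 FPKM in normal PBS, 122, 146 and 153 in MMTV-PyMT PBS and 79.7, 87.1 and 67.7 in implanted PBS libraries. All MMTV-PyMT libraries lay above the others, which overlapped. The difference between MMTV-PyMT and normal was 0.82 ± 0.13 (SE; adjusted p = 7.13e-05), and that between implanted and MMTV-PyMT was -0.84 ± 0.13 (adjusted p = 0.000102; limma). For implanted against normal the value was -0.02 ± 0.13 (adjusted p = 0.907).

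Of the P stalk, Rplp0, the scaffold protein that holds the other two (ENSMUSG00000067274.10, chromosome 5, 115559467 to 115563727), stood at 405, 431 and 415 FPKM in normal PBS, at 646, 717 and 691 in MMTV-PyMT PBS and at 562, 572 and 544 in implanted PBS libraries. It was higher in MMTV-PyMT by 0.71 ± 0.11 (SE; adjusted p = 6.84e-05) and in implanted by 0.42 ± 0.11 (adjusted p = 0.00571). The second call was lost with scaling by total reads or with quantile normalisation, where the lowest value was 0.13. Rplp1 was higher in MMTV-PyMT by 0.38 ± 0.13 (adjusted p = 0.0167), a call lost with quantile normalisation (adjusted p = 0.285) and without normal PBS replicate 1 or 2 or MMTV-PyMT PBS replicate 3, and Rplp2 had a value of 0.26 ± 0.12 (adjusted p = 0.0777). Rpsa, which is both a 40S protein and a laminin receptor at the cell surface, was at 159, 163 and 169 FPKM in normal PBS and at 226, 259 and 251 in MMTV-PyMT PBS, a difference of 0.58 ± 0.12 (adjusted p = 0.000794; limma).

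Not all classical RP genes took part. Rps27 had a value of -0.08 ± 0.12 (adjusted p = 0.588), Rpl21 of -0.09 ± 0.11 (adjusted p = 0.526) and Rps20 of 0.09 ± 0.09 (adjusted p = 0.402), by limma. The member that was lower in MMTV-PyMT was the pseudogene Rps4l (ENSMUSG00000063171.4, chromosome 6), at 8.44, 8.49 and 9.10 FPKM in normal PBS and 4.23, 3.33 and 3.67 in MMTV-PyMT PBS. Its difference was -1.03 ± 0.13 (SE; adjusted p = 1.03e-05), while Rps4x, the coding small subunit gene of the same family, was higher by 0.38 ± 0.11 (adjusted p = 0.00692; 0.074 with quantile normalisation, by limma).

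Markers of other cells moved along with this comparison. From normal PBS to MMTV-PyMT PBS, the means of 6 of 7 epithelial markers were higher, among them Epcam (60.1 and 204 FPKM) and Krt8 (80.8 and 231), and that of Krt19 was lower (148 and 58.7). The summed level of 10 of 10 cell cycle genes was 61.2 to 71.9 FPKM in normal PBS, 111.9 to 122.2 in MMTV-PyMT PBS and 101.8 to 121.6 in implanted PBS. That of 7 of 7 mural markers was 1015 to 1136 FPKM in normal PBS and 223.9 to 308.6 in MMTV-PyMT PBS. The endothelial sum itself was lower in MMTV-PyMT PBS, as given above. That of 5 of 5 fibroblast markers was 68.7 to 79.6 FPKM in normal PBS and 110.0 to 174.3 in MMTV-PyMT PBS. Of the fibroblast markers, Dcn alone had a lower mean in MMTV-PyMT PBS (11.2 and 6.84 FPKM). Summed leukocyte markers were at 38.5 to 99.4 FPKM in normal PBS and at 20.2 to 33.1 in MMTV-PyMT PBS. The part of these cells and genes in the RP differences was not tested.

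**Figure D2:**
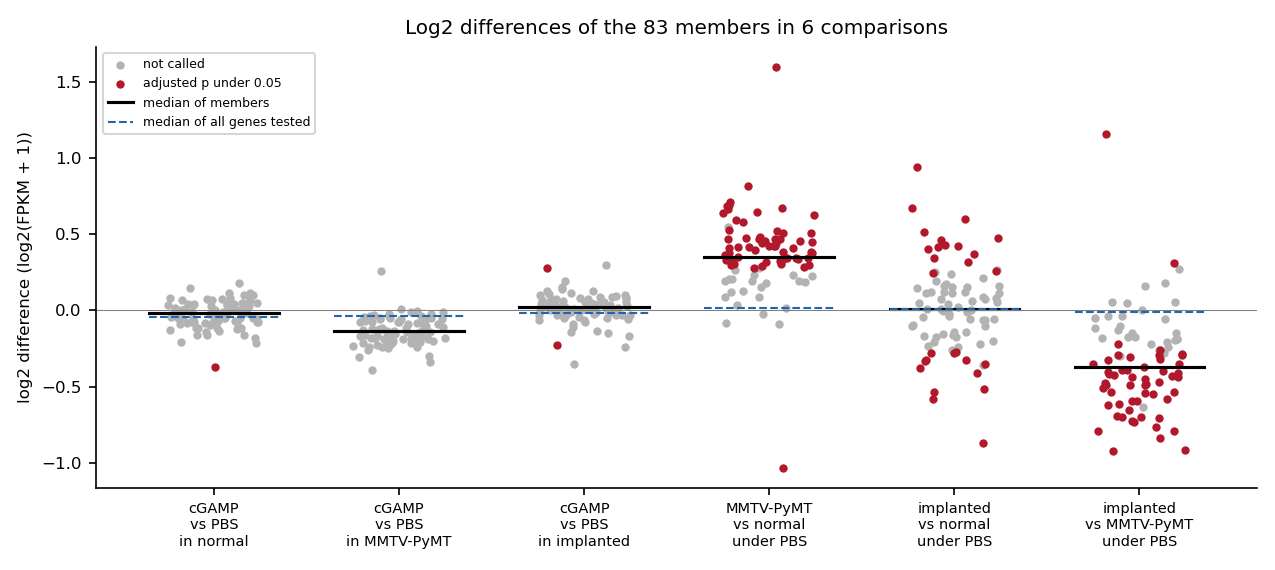
Difference in log2(FPKM + 1) of each RP gene in the 3 tissue comparisons under PBS and the 3 cGAMP comparisons, 1 point for each of the 83 members, with called members in red, solid lines at the median of members and dashed lines at the median of all genes tested. MMTV-PyMT against normal lies mostly above 0 (median 0.35), implanted against MMTV-PyMT mostly below (median -0.37), and the cGAMP comparisons lie near 0.

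RP transcript levels were lower in the sorted cells of implanted tumours than in those of spontaneous ones. Under PBS, 52 of 83 members (62.7%) were lower and 2 were higher in implanted than in MMTV-PyMT ECs, while among all genes tested 24.6% were lower and 20.8% higher (limma with Benjamini-Hochberg adjustment). The median difference was -0.37 for members and -0.01 for all genes. Of the large subunit core members, 26 of 46 were lower and 1 was higher (median -0.30). Of the small subunit members, 23 of 31 were lower and 0 were higher (median -0.40). In 59 members (71.1%, against 30.9% of all genes) all implanted PBS libraries lay below all MMTV-PyMT PBS libraries. Among the 13 members that share little sequence, 9 were lower and 0 higher. These comparisons share the MMTV-PyMT PBS libraries with the one above, so that they are not independent of it. Between MMTV-PyMT PBS and implanted PBS, summed epithelial markers went from 893 to 966 down to 393 to 566 FPKM, though mean Krt19 did not fall. Endothelial markers went from 989 to 1212 up to 1563 to 1978, though mean Tek and Cldn5 did not rise. Fibroblast markers went from 110.0 to 174.3 up to 233.7 to 269.4, through Col1a1 (means of 90.5 and 186) and Col1a2 (34.2 and 53.9). The other fibroblast markers had lower means, Pdgfra (3.31 and 2.41), Dcn (6.84 and 2.25) and Lum (9.84 and 2.21). Summed leukocyte markers went from 20.2 to 33.1 up to 33.4 to 76.7 FPKM. The part of these markers in the RP values was not tested.

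Rps3, a small subunit protein at the mRNA entry channel that shares no 75-base window with another gene (ENSMUSG00000030744.13, chromosome 7, 99477896 to 99483738), was close to the members' median. It was at 109, 109 and 110 FPKM in normal PBS, at 127, 142 and 140 in MMTV-PyMT PBS and at 97.1, 101 and 95.1 in implanted PBS libraries. The MMTV-PyMT libraries were the highest and the implanted the lowest, without overlap. The differences were 0.32 ± 0.08 for MMTV-PyMT against normal (adjusted p = 0.00397), -0.47 ± 0.08 for implanted against MMTV-PyMT (adjusted p = 0.000272) and -0.16 ± 0.08 for implanted against normal (adjusted p = 0.129; limma).

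Rpl23a, a large subunit protein at the exit tunnel, was among those furthest apart between the tumours. It was at 82.0, 88.5 and 99.8 FPKM in normal PBS, at 112, 128 and 117 in MMTV-PyMT PBS and at 63.1, 62.4 and 61.7 in implanted PBS libraries. The difference between implanted and MMTV-PyMT was -0.92 ± 0.09 (SE; adjusted p = 2.38e-06; limma), but 81.7% of its windows occur in another gene. Rps4x was lower in implanted than in MMTV-PyMT ECs by a log2 value of -0.70 ± 0.11 (adjusted p = 8.93e-05) and Rps27 by -0.79 ± 0.12 (adjusted p = 9.51e-05). Rplp0 had a value of -0.29 ± 0.11 (adjusted p = 0.0464), a call that was lost in 16 of 27 alternative settings, among them the replicate block and leaving out any of the MMTV-PyMT PBS or implanted PBS libraries, with adjusted p up to 0.131.

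Between implanted and normal ECs, RP genes moved in both directions. Under PBS, 15 members (18.1%) were higher and 13 (15.7%) lower in implanted ECs, against 25.0% and 23.6% of all genes. The median difference was 0.01 for members and 0.01 for all genes. Large subunit members were higher in 12 cases and lower in 6, small subunit members higher in 2 and lower in 7. Higher were Rpl41, Rpl38, Rpl37, Rpl37a, Rpl35, Rpl29, Rpl28, Rpl27, Rpl15, Rpl11, Rpl8, Rplp0, Rps2, Rps26 and Rps27l, and among those lower were Rps27, Rps27a, Rps3a1, Rps4x, Rps14, Rpl7, Rpl9, Rpl21, Rpl22, Rpl23a and Rpl34. The split depended on the scaling: total reads gave 6 higher and 28 lower, quantile normalisation 8 and 29, and upper-quartile scaling 13 and 23. Leaving out single libraries ended the calls of Rps4x (normal PBS replicate 3 or implanted PBS replicate 3) and Rpl7 (normal PBS replicate 2 or 3, or implanted PBS replicate 2 or 3), with adjusted p up to 0.0744 and 0.0945.

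Rpl41, which encodes the shortest RP (ENSMUSG00000093674.7, chromosome 10, 128548114 to 128549305), was highest in implanted ECs. Its levels were 156, 162 and 151 FPKM in normal PBS, 223, 245 and 260 in MMTV-PyMT PBS and 314, 313 and 277 in implanted PBS libraries. The 3 groups did not overlap. The difference between implanted and normal was 0.94 ± 0.09 (SE; adjusted p = 7.25e-07), and that between MMTV-PyMT and normal was 0.63 ± 0.09 (adjusted p = 4.02e-05). Implanted exceeded MMTV-PyMT by 0.31 ± 0.09 (adjusted p = 0.0136; limma), a call lost with scaling by total reads, with quantile normalisation and without MMTV-PyMT PBS replicate 1 or implanted PBS replicate 2.

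Rpl38, a large subunit protein known for its part in the translation of Hox mRNAs (ENSMUSG00000057322.12, chromosome 11, 114668524 to 114672331), was at 134, 124 and 161 FPKM in normal PBS, at 161, 180 and 184 in MMTV-PyMT PBS and at 207, 215 and 212 in implanted PBS libraries. The implanted libraries were the highest without overlap. The difference from normal was 0.60 ± 0.12 (SE; adjusted p = 0.000768; limma).

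Members called in opposite directions between implanted and normal ECs also differed in base composition. Median GC content was 54.2% for the 14 higher core members, 49.3% for the 13 lower and 51.7% for the 50 not called, and median lengths were 840 and 975 bases for the higher and lower members. Across the 77 core members, GC content and the difference had a Spearman correlation of 0.31, against 0.25 across 11966 coding genes of the same libraries, which is given as a description only. CCGGAAG was found in the windows of 9 of 13 higher, 2 of 6 lower and 14 of 41 uncalled members with a promoter window, paralogs included. The part of base composition in the differences was not tested.

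**Figure D3:**
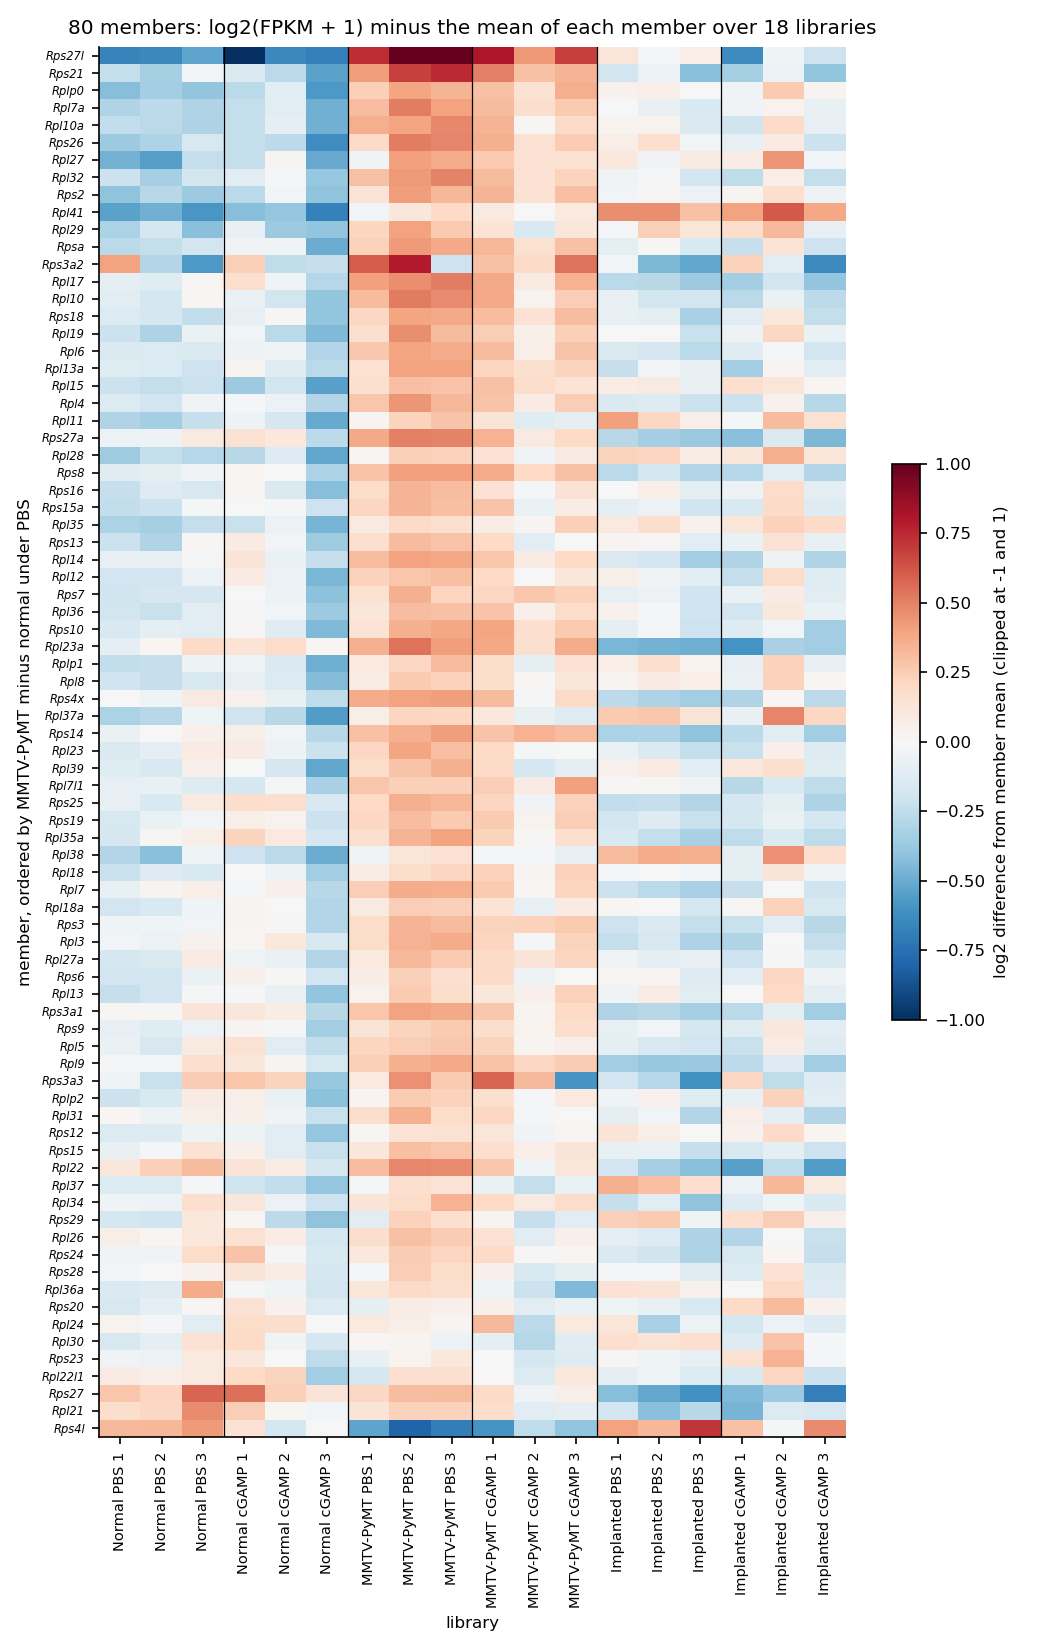
Level of 80 of the RP genes in each library relative to its mean over the 18 libraries, in log2(FPKM + 1) and clipped at -1 and 1, with members ordered by their difference between MMTV-PyMT and normal ECs under PBS and libraries by group. MMTV-PyMT PBS libraries are above the mean for most members, while implanted libraries are above it for some members and below it for others.

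Paralogs were compared side by side, without a test of the difference within a pair. Rps27 (ENSMUSG00000090733.6, chromosome 3, 90212522 to 90213651) was at 233, 223 and 289 FPKM in normal PBS, at 222, 238 and 240 in MMTV-PyMT PBS and at 143, 134 and 126 in implanted PBS libraries. Normal and MMTV-PyMT overlapped, and implanted was below both, by a log2 value of -0.87 ± 0.12 against normal (adjusted p = 2.34e-05; limma). Its paralog Rps27l was higher in both tumours, as given above. Rps27 shares 42.4% of its windows, mainly with Rps27rt, which itself had means of 6.56, 5.97 and 3.53 FPKM in normal, MMTV-PyMT and implanted PBS.

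Rpl22, whose protein also binds other RNAs and represses the mRNA of its paralog Rpl22l1, was at 40.0, 43.7 and 46.1 FPKM in normal PBS, at 45.9, 51.9 and 51.4 in MMTV-PyMT PBS and at 32.2, 29.1 and 27.4 in implanted PBS libraries. It was lower in implanted than in normal ECs (-0.54 ± 0.11, adjusted p = 0.000739) and than in MMTV-PyMT ECs (-0.73 ± 0.11, adjusted p = 7.02e-05; limma). Rpl22l1 (chromosome 3, 28805436 to 28807424) was called in none of the 3 tissue comparisons (-0.03, -0.17 and -0.15), with 17.9, 17.7 and 18 FPKM in normal PBS, 14.8, 19.1 and 19.0 in MMTV-PyMT PBS and 15.8, 16.3 and 15.2 in implanted PBS. Rpl7l1, a paralog of Rpl7 that acts in large subunit assembly, was higher in MMTV-PyMT than in normal ECs by 0.35 ± 0.08 (adjusted p = 0.00255), as was Rpl7 by 0.32 (adjusted p = 0.011). In implanted against normal ECs Rpl7 was lower by a value of -0.28 (adjusted p = 0.0291, lost in 4 of 27 alternative settings), while Rpl7l1 had a value of 0.09 ± 0.08 (adjusted p = 0.412; limma).

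**Figure D4:**
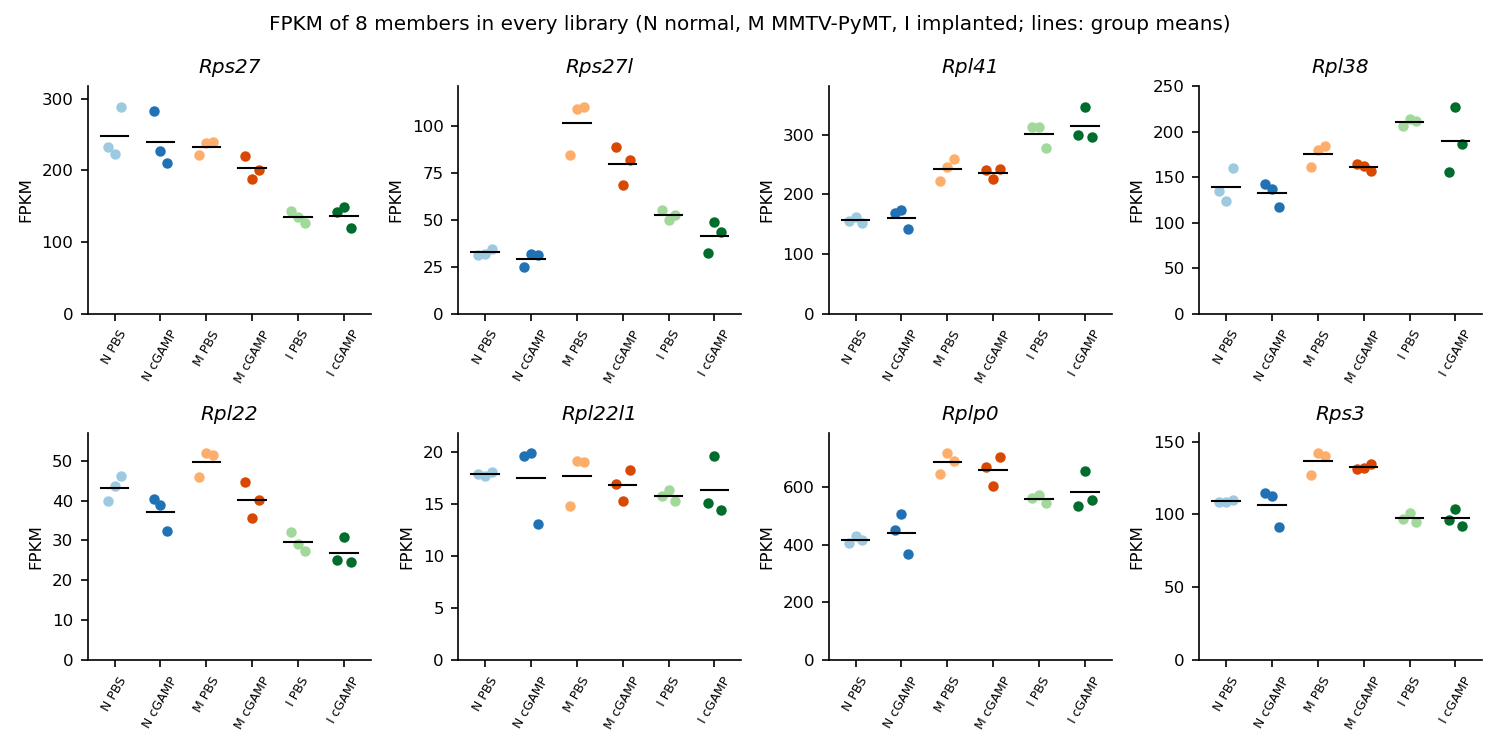
FPKM of 8 RP genes (Rps27, Rps27l, Rpl41, Rpl38, Rpl22, Rpl22l1, Rplp0 and Rps3) by group, with 1 point per library and lines at the mean of 3 libraries. Under PBS, Rps27l is highest in MMTV-PyMT, Rpl41 and Rpl38 are highest in implanted ECs, and Rps27 is lowest in implanted ECs.

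Over the 3 tissue comparisons under PBS, 71 members were called in at least 1, against 76.1% of all genes tested, and 12 in none, among them Rpl22l1, Rpl24, Rpl30, Rpl36a, Rplp2, Rps12, Rps20, Rps23, Rps28, Rps29 and Rps3a3. The SD of the members' differences was 0.28 in MMTV-PyMT against normal, 0.30 in implanted against normal and 0.32 in implanted against MMTV-PyMT.

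cGAMP against PBS, which asks what 3 h of STING activation does to the ECs of each tissue, left RP genes with few calls on the deposited scale. In normal ECs 0 members were higher and 1 was lower, against 13.7% and 18.2% of all genes, by limma with Benjamini-Hochberg adjustment. In MMTV-PyMT ECs 0 members were higher and 0 lower, against 7.42% and 4.57% of all genes. There 10 members had an unadjusted p under 0.05, all lower, against 26.5% of all genes in either direction. By voom on the recovered reads 0 members were called. In implanted ECs 1 member was higher and 1 lower, against 20.3% and 18.8% of all genes. The median differences of the members were -0.02, -0.13 and 0.02 in the 3 tissues, against -0.04, -0.04 and -0.01 for all genes. The SD of the members' differences was 0.09, 0.09 and 0.10, narrower than in the tissue comparisons. Without implanted cGAMP replicate 2, the library with the highest leukocyte markers, 0 members were higher and 4 lower in implanted ECs. Without MMTV-PyMT cGAMP replicate 1, 3 members were lower in MMTV-PyMT ECs. The part of the leukocyte transcripts in these values was not tested.

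In both tumours the absence of calls depended on the scaling. With scaling by total reads, 30 members were lower and 0 higher in MMTV-PyMT ECs (median -0.27, against -0.14 for all genes), and 60 were lower and 0 higher in implanted ECs (median -0.29, against -0.25 for all genes). Quantile normalisation gave 19 lower members in MMTV-PyMT (median -0.24, all genes -0.07) and 70 in implanted ECs (median -0.41, all genes -0.09). Upper-quartile scaling gave 2 and 3 lower members. In normal ECs the scalings gave at most 3 lower members. The shares of all genes called lower under these scalings are not given here. The counts alone thus do not set RP genes apart from other genes. Relative to the median of all genes, the members' median in implanted ECs was thus higher by 0.03 on the deposited scale, lower by a value of -0.04 with total reads and lower by -0.32 with quantile normalisation.

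Although calls were few, the signs in MMTV-PyMT ECs lay mostly one way. Of 83 members, 81 had a negative difference, and 18 (21.7%) had all cGAMP libraries below all PBS libraries, against 18.6% of all genes. For 2 of 77 core members the mean was higher under cGAMP, compared with 36 in normal and 52 in implanted ECs. Members share libraries, so that these counts are no test. Epithelial markers moved too, from a sum of 893 to 966 FPKM in MMTV-PyMT PBS to 616 to 866 in MMTV-PyMT cGAMP libraries, and their part in the RP values was not tested.

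The 3 members called after cGAMP were close to the threshold. Rps20, a small subunit protein of the head, rose in implanted ECs from 66.4, 64.7 and 61.1 to 78.5, 85.3 and 70.5 FPKM, without overlap (0.28 ± 0.09, adjusted p = 0.0211; limma). The call was lost with upper-quartile scaling, with only the compared groups in the fit and without implanted PBS replicate 3 or implanted cGAMP replicate 2, and its sign turned with total reads (-0.035) and quantile normalisation (-0.15). Rpl7l1 fell in implanted ECs from 17.6, 17.6 and 17.0 to 14.2, 15.6 and 14.4 FPKM (-0.23 ± 0.08, adjusted p = 0.0442), a call lost in 16 of 27 alternative settings (adjusted p up to 0.118), leaving out any of the implanted PBS libraries among them. The pseudogene Rps4l fell in normal ECs from 8.44, 8.49 and 9.10 to 7.31, 5.66 and 6.54 FPKM (-0.37 ± 0.13, adjusted p = 0.0453), lost in 13 of 27 settings (adjusted p up to 0.163), voom and leaving out any of the normal PBS libraries among them.

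Most members stayed within the spread of their libraries. Rplp0 was at 452, 505 and 367 FPKM in normal cGAMP, at 670, 603 and 704 in MMTV-PyMT cGAMP and at 533, 656 and 555 in implanted cGAMP libraries, overlapping PBS in each tissue. Rpl41 was at 168, 173 and 142, at 241, 225 and 242 and at 299, 347 and 296 FPKM, again overlapping PBS. Rps27l was at 24.7, 31.9 and 31.0 FPKM in normal cGAMP, at 89.1, 68.4 and 82.0 in MMTV-PyMT cGAMP and at 32.2, 48.8 and 43.5 in implanted cGAMP. In implanted ECs all 3 Rps27l values lay below PBS, with a difference of -0.35 ± 0.15 that did not pass the test (adjusted p = 0.0649; limma).

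Whether the cGAMP effect differed between tissues was tested as an interaction. For MMTV-PyMT against normal 0 members were called (8.37% of all genes), for implanted against normal 0 (18.6%) and for implanted against MMTV-PyMT 0 (11.1%), by limma and also by voom. At an unadjusted p under 0.05 there were 1, 0 and 4 members, against 24.2, 32.2 and 24.7% of all genes. The median interaction of the members was -0.12, 0.04 and 0.16, against 0.01, 0.04 and 0.02 for all genes. With quantile normalisation 27 members had a called negative interaction in implanted against normal ECs (median -0.36, against -0.03 for all genes). With scaling by total reads there were 2 (median -0.27, against -0.19 for all genes).

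Other genes whose proteins belong to the ribosome but whose names are outside the rule were also higher in MMTV-PyMT ECs. Fau, which encodes an RP fused to a ubiquitin-like protein, was higher in MMTV-PyMT than in normal ECs under PBS by 0.35 ± 0.11 (SE; adjusted p = 0.0104) and Rpl36al by 0.59 ± 0.18 (adjusted p = 0.011; limma). Rack1, a scaffold on the small subunit, was at 121, 121 and 118 FPKM in normal PBS, at 171, 187 and 186 in MMTV-PyMT PBS and at 129, 128 and 123 in implanted PBS libraries. Its difference was 0.59 ± 0.09 in MMTV-PyMT against normal (adjusted p = 2.88e-05) and -0.52 ± 0.09 in implanted against MMTV-PyMT (adjusted p = 0.000185; limma). In implanted against normal ECs Fau (0.30 ± 0.11, adjusted p = 0.0275) and Rpl36al (0.70 ± 0.18, adjusted p = 0.00451) were higher, and none of Fau, Rack1 and Rpl36al was called after cGAMP in any tissue.

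Between MMTV-PyMT ECs and either other tissue, the translation factors differed in much the same direction as the RP genes. Of 12 elongation and other TOP transcripts, 9 were higher and 0 lower in MMTV-PyMT than in normal ECs (median 0.36), among them the elongation factors Eef1a1 (0.40) and Eef2 (0.51). In implanted against MMTV-PyMT 1 was higher and 7 were lower (median -0.30). In implanted against normal 0 were lower and 2 higher, among them Pabpc1, which encodes the poly(A)-binding protein (0.83 ± 0.13, adjusted p = 8.09e-05; limma). In the order of these comparisons, 29.8, 20.8 and 25.0% of all genes were higher and 26.6, 24.6 and 23.6% lower. Both counts in implanted against normal were thus below the shares of all genes. After cGAMP, 1 was higher and 1 lower in normal ECs, 0 were called in MMTV-PyMT and 1 was higher in implanted ECs, which was Pabpc1 (0.48 ± 0.13, adjusted p = 0.00914). Of all genes, 13.7, 7.42 and 20.3% rose and 18.2, 4.57 and 18.8% fell in these tissues.

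Of 28 initiation factors, 24 were higher and 1 was lower in MMTV-PyMT than in normal ECs (median 0.39), 7 were higher and 5 lower in implanted against normal, and 1 was higher and 20 lower in implanted against MMTV-PyMT (median -0.29). In the same order, 29.8, 25.0 and 20.8% of all genes were higher and 26.6, 23.6 and 24.6% lower. The counts in implanted against normal were thus at or below the shares of all genes. The paralogous helicases of the cap-binding complex were opposed, with Eif4a1 higher in MMTV-PyMT by 0.97 ± 0.09 (adjusted p = 2.12e-07) and Eif4a2 lower by a log2 value of -1.46 ± 0.12 (adjusted p = 8.74e-08; limma). In the order normal, MMTV-PyMT and implanted ECs, 6, 1 and 8 factors rose after cGAMP, against 13.7, 7.42 and 20.3% of all genes, and 2, 1 and 4 fell, against 18.2, 4.57 and 18.8%. Eif4a1 rose in normal ECs from 62.9, 62.3 and 59.9 to 94.9, 103 and 82.0 FPKM (0.58 ± 0.09, adjusted p = 0.000129), but had a value of -0.15 ± 0.09 in implanted ECs (adjusted p = 0.169). The difference between these effects was -0.74 ± 0.12 (adjusted p = 0.000616).

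Genes that build ribosomes changed after cGAMP where the RP genes had few calls. Of 40 ribosome biogenesis genes, normal ECs had 19 that rose and 2 that fell (median 0.30), MMTV-PyMT ECs had 1 and 0 (median 0.00), and implanted ECs had 2 and 20 (median -0.26). Of all genes, 13.7% rose and 18.2% fell in normal, 7.42% and 4.57% in MMTV-PyMT and 20.3% and 18.8% in implanted ECs. In implanted ECs summed leukocyte markers went from 33.4 to 76.7 up to 60.7 to 308.6 FPKM and fibroblast markers from 233.7 to 269.4 up to 253.1 to 602.2, and their part in the fall was not tested. The interaction was called for 1 gene in the positive and 25 in the negative direction in implanted against normal ECs (median -0.51), for 0 and 5 in MMTV-PyMT against normal (median -0.33) and for 2 and 7 in implanted against MMTV-PyMT (median -0.25). Of all genes, 18.6, 8.37 and 11.1% had a called interaction in either direction, in the same order. Leaving out single libraries gave 13 to 23 called genes in normal and 14 to 24 in implanted ECs, where 13 came without normal cGAMP replicate 2 (12 rose and 1 fell) and 14 without implanted PBS replicate 1 (2 rose and 12 fell). In implanted ECs scaling by total reads gave 2 that rose and 34 that fell, and a fit of the compared groups alone 2 and 8.

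Nop58, a core protein of the box C/D particles that guide methylation of ribosomal RNA, went from 5.43, 4.35 and 4.94 to 10.5, 10.2 and 10.1 FPKM in normal ECs. In MMTV-PyMT ECs it went from 6.06, 6.06 and 5.54 to 6.95, 6.54 and 6.56 FPKM, and in implanted ECs from 3.50, 3.39 and 3.60 to 3.03, 2.83 and 2.85 FPKM. It rose in normal ECs by 0.94 ± 0.08 (adjusted p = 2.44e-07), had a value of 0.16 ± 0.08 in MMTV-PyMT (adjusted p = 0.196) and fell in implanted ECs (-0.20 ± 0.08, adjusted p = 0.042; limma). The interaction of implanted against normal was -1.14 ± 0.11 (adjusted p = 8.68e-06).

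Utp4, a protein of the early small subunit processome, rose in normal ECs from 7.31, 8.36 and 6.82 to 11.4, 12.1 and 10.2 FPKM (0.52 ± 0.08, adjusted p = 0.000234). In implanted ECs it fell from 8.96, 9.13 and 9.62 to 4.75, 4.75 and 4.98 FPKM (-0.81 ± 0.08, adjusted p = 1.2e-06; limma). Polr1b, the second largest subunit of RNA polymerase I, and Nob1, the nuclease that finishes the small subunit RNA, fell in implanted ECs, with values of -0.77 ± 0.14 (adjusted p = 0.000319) and -0.66 ± 0.11 (adjusted p = 0.000117). Against this direction Wdr43 rose in all 3 tissues, by 0.69 (normal), 0.32 (MMTV-PyMT) and 0.94 (implanted). In the tissue comparisons the biogenesis genes were closer to the RP genes, with 25 of 40 higher and 0 lower in MMTV-PyMT than in normal ECs (median 0.28), 6 higher and 8 lower in implanted against normal, and 1 higher and 24 lower in implanted against MMTV-PyMT (median -0.34). In the same order, 29.8, 25.0 and 20.8% of all genes were higher and 26.6, 23.6 and 24.6% lower. Both counts in implanted against normal were thus below the shares of all genes.

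**Figure D5:**
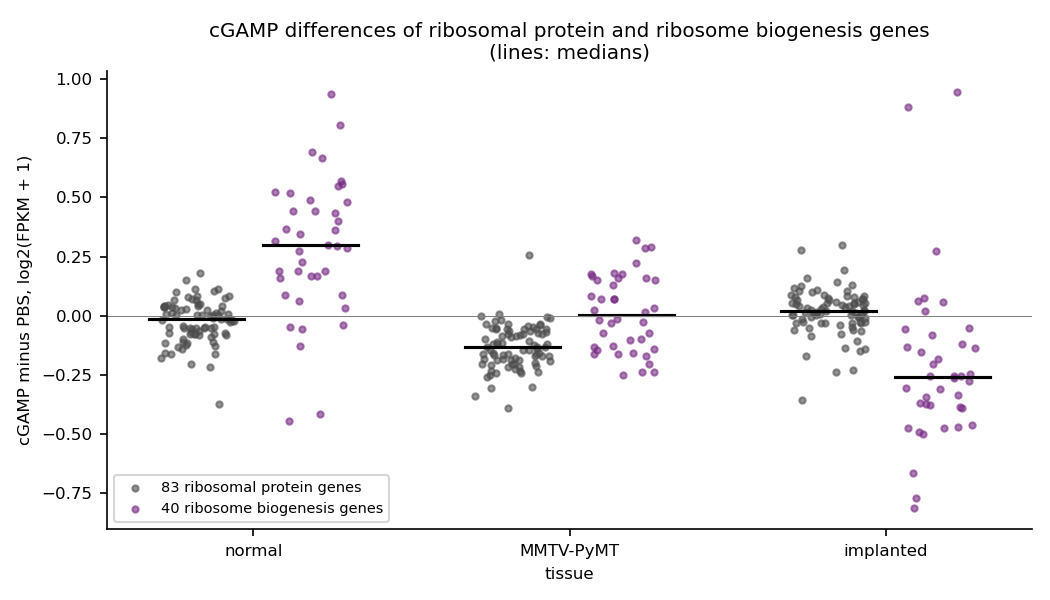
Difference between cGAMP and PBS in log2(FPKM + 1) for the 83 RP genes and the 40 ribosome biogenesis genes in each tissue, 1 point per gene with the median marked. From the normal tissue to the spontaneous and the implanted tumour, RP medians lie at -0.02, -0.13 and 0.02, and biogenesis medians at 0.30, 0.00 and -0.26.

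Of the genes known to set ribosome output, 23 of 24 were in the table. After cGAMP the numbers that rose and fell were 9 and 6 for normal, 6 and 3 for MMTV-PyMT and 5 and 8 for implanted ECs, and the matching shares of all genes were 13.7 and 18.2%, 7.42 and 4.57%, and 20.3 and 18.8%. Under PBS 6 were higher and 3 lower in MMTV-PyMT against normal, 8 and 7 in implanted against normal and 7 and 5 in implanted against MMTV-PyMT, so that some of these counts were near or below the shares of all genes. Larp1, which binds TOP mRNAs, went from 17.8, 17.7 and 16.9 to 28.9, 29.3 and 25.6 FPKM in normal ECs, from 26.2, 27.0 and 28.0 to 35.8, 35.3 and 34.0 in MMTV-PyMT and from 26.1, 24.5 and 26.1 to 55.0, 53.4 and 56.0 in implanted ECs. It rose in each tissue without overlap, by 0.65 ± 0.06, 0.36 ± 0.06 and 1.07 ± 0.06, with adjusted p = 2.02e-06, 0.00109 and 2.15e-09 (limma). Eif2ak2, the interferon-induced kinase PKR that halts initiation, rose by 2.02, 2.06 and 2.56, and Myc, which drives ribosome production, by 0.88, 0.40 and 0.57. Eif4ebp2, a repressor of cap-dependent initiation, fell in all 3 tissues, with values of -0.56, -0.46 and -1.06.

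Mitochondrial RP genes serve the separate ribosome of mitochondria. After cGAMP, of 77 genes, 18 fell and 0 rose in the normal tissue (median -0.17), 4 and 0 in MMTV-PyMT and 22 and 3 in the implanted tumour (median -0.20). The shares of all genes that fell were 18.2, 4.57 and 18.8%. Under PBS 40 were higher and 0 lower in MMTV-PyMT than in normal ECs (median 0.35), and 28 were higher and 0 lower in implanted than in normal ECs (median 0.20). In implanted against MMTV-PyMT 5 were higher and 18 lower (median -0.15). In the order of these 3 comparisons, 29.8, 25.0 and 20.8% of all genes were higher and 26.6, 23.6 and 24.6% lower. The 18 lower genes were thus near the share of all genes.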

How the data were processed

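The members and the gene lists were chosen with earlier results of these data known. Per the submitters' processing notes and the study's methods, reads were checked with FastQC, aligned to mm10 with STAR 2.7 and counted with HTSeq. The authors deposited FPKM in 1 table of 16248 genes. How FPKM were derived, the strand setting and the treatment of multi-mapped reads are not given in the sources used here. Values at 0 numbered 0. Whole reads were recovered for 16246 genes (tolerance 0.01), and the FPKM denominators were 0.736 to 1.15 times the recovered reads, following median-of-ratios size factors to within 0.0104%.

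The study's groups and replicates came from the labels. Replicates were compared by chi-square per gene, which was 4.10 to 31.5, so that none was a duplicate. The test was limma (3.58.1, R 4.3.3) with trend on log2(FPKM + 1), with 1 mean per group over 18 libraries, for 13983 genes at 1 FPKM or more in at least 3 libraries (2265 fell below). Called means a Benjamini-Hochberg adjusted p under 0.05 over those genes, with no fold limit. In all, 9 comparisons were made: 3 of cGAMP, 3 of tissue and 3 interactions. Members were named if called after cGAMP, if among the largest differences between tissues, or as paralogs and P stalk genes. Shared sequence and GC content were computed from transcripts in Python 3.11.15, and promoters came from RefSeq. Fits were checked on simulated data. Alternatives were another pseudocount, filters, 3 scalings, a replicate block, a fit of only the compared groups, voom on recovered reads, a 2-fold limit on FPKM + 1 and leaving out each library. Counts over members with little shared sequence, over core members alone, and the biogenesis counts under each alternative were added after the data were seen. Some genes are counted among the totals but not reported here by name.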

Additional observations from a re-analysis of the deposited data

Results flagged for a closer look

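No RP gene had a cGAMP effect that differed between tissues by limma with Benjamini-Hochberg adjustment. Among the genes named from the other lists, 26 differences between cGAMP effects passed the test of the difference itself, each in log2(FPKM + 1). In MMTV-PyMT minus normal ECs the difference was negative for Eif4a1 (-0.69), Gnl3 (-0.67), Hnrnpa1 (-0.69), Ncl (-0.65), Nop58 (-0.78) and Utp4 (-0.68) and positive for Eif4a2 (0.61).

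In implanted minus normal ECs the ribosome biogenesis genes Gnl3 (-1.19), Ncl (-0.42), Nhp2 (-0.74), Nob1 (-0.85), Nop58 (-1.14), Polr1b (-0.86) and Utp4 (-1.34) had a lower cGAMP effect, as did Eif4a1 (-0.74) and Eif4ebp2 (-0.51). The difference was positive for Ddit4, an inhibitor of mTOR (0.93), which fell after cGAMP in normal ECs (-1.12) and was not called in implanted ECs (-0.19). It was also positive for Larp1 (0.42), which rose in both (0.65 and 1.07).

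In implanted minus MMTV-PyMT ECs the differences were -0.61 for Eif4ebp2, -0.52 for Gnl3, -0.82 for Nob1, -0.36 for Nop58, -0.79 for Polr1b and -0.66 for Utp4, against 0.71 for Larp1 and 0.62 for Wdr43. The 3 sets of differences share libraries. Groups of 3 libraries were not tested for a library that stands apart.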

How the results depend on the processing

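The direction of the member medians in MMTV-PyMT against normal and in implanted against MMTV-PyMT held under the alternatives run, while implanted against normal and the cGAMP results in tumours depended on the scaling. Counts of called members follow, without the shares of all genes called under each alternative. For cGAMP in normal ECs there were 3 with quantile normalisation and 0 with a pseudocount of 0.1, no filter, upper-quartile scaling, voom, a 2-fold limit, members with little shared sequence, or core members alone. In MMTV-PyMT ECs there were 2 with a mean of 5 FPKM or more, 30 with total reads, 19 with quantile and 2 with upper-quartile scaling, with medians of -0.27 (total reads) and -0.24 (quantile). In implanted ECs there were 60 with total reads, 70 with quantile, 1 with voom, 0 with only the compared groups or a 2-fold limit, 2 among members with little shared sequence and 1 among core members. The medians there were -0.29, -0.41 and, with upper-quartile scaling, -0.088. The 2-fold limit left 2, 0 and 1 members in the 3 tissue comparisons. Medians moved to -0.17 and -0.14 (implanted against normal, total reads and quantile) and -0.53 (implanted against MMTV-PyMT, total reads). The interaction of MMTV-PyMT and normal had 1 call with a mean of 5 FPKM or with only the compared groups, and a median of -0.25 with total reads. That of implanted and normal had 2 and 27 calls with total reads and quantile (medians -0.27 and -0.36, upper-quartile -0.10), and that of implanted and MMTV-PyMT 1 with total reads (medians -0.017 and, with quantile, -0.16). The cause of these changes was not tested.

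Of 2484 alternative values of single named members, 9 were counted as turned in sign, all in results that did not pass the test except Rps20. For results that did not pass, a turn was counted only where the alternative passed the test with the opposite sign. Sign changes that did not pass were left out of this count, for instance Rplp0 for cGAMP in normal ECs (0.07, lowest -0.03 with 1 library left out). The turns counted for cGAMP in implanted ECs were, with quantile normalisation, Rplp0 (-0.39), Rplp2 (-0.45), Rpl7 (-0.37), Rps27 (-0.52), Rps4x (-0.38) and Rps20 (-0.15). With total reads they were Rps27 (-0.30) and Rps20 (-0.035). For implanted against normal it was Rplp1 (-0.32, quantile). In 68 further values a call was lost and in 47 one was gained.

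Biogenesis calls numbered 0 in each tissue with a 2-fold limit, which was set on FPKM + 1 and so was stricter for genes of low FPKM. On FPKM itself some means changed by 2-fold or more from PBS to cGAMP. These were Nop58 in normal (4.91 to 10.3) and Polr1b (4.28 to 2.12) and Wdr43 (7.94 to 16.1) in implanted ECs, among the genes named. In MMTV-PyMT ECs they were 2 with a mean of 5 FPKM, 4 with total reads and 2 with quantile, and in implanted ECs 36 with total reads and 10 with only the compared groups. As a share of summed FPKM, members took 4.42, 4.41, 4.78, 4.20, 3.64 and 3.07% from normal PBS to implanted cGAMP, and without mitochondrial genes 2.09% in normal PBS and 1.83% in implanted PBS.

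Leaving out each library in turn gave 0 to 1, 0 to 3 and 0 to 4 members for cGAMP in normal, MMTV-PyMT and implanted ECs, 51 to 65, 22 to 32 and 44 to 57 in the tissue comparisons, and 0 to 1, 0 to 0 and 0 to 0 in the interactions. Medians ran from -0.09 to 0.09, -0.18 to -0.08 and -0.05 to 0.06 for cGAMP, from 0.33 to 0.41, -0.01 to 0.04 and -0.41 to -0.31 for tissue, and from -0.21 to -0.04, -0.06 to 0.10 and 0.08 to 0.21 for the interactions. Biogenesis calls ran from 13 to 23, 0 to 2 and 14 to 24, and read shares from 2.0 to 2.03, 1.90 to 2.09, 2.54 to 2.68, 2.08 to 2.25, 1.74 to 1.79 and 1.36 to 1.55%.

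Replicate numbers are shared by the groups, but libraries of the same number did not deviate together (45 pairs, r from -0.35 to 0.29, median -0.01, 8 over 0.1; 5 of 18 libraries closest to their own number). A replicate block gave 1 called member for cGAMP in implanted ECs and 0 biogenesis genes in MMTV-PyMT ECs.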
